A study of Mus musculus with 18 samples.

Results

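The miR-26 family of the mouse consists of the guide strands mmu-miR-26a-5p and mmu-miR-26b-5p (miR-26a-5p and miR-26b-5p from here on), and its values were taken by name from a table of 2042 miRNA names, so 2 of 2042 were members. They were measured in C2C12, a mouse myoblast line that fuses into myotubes when serum is withdrawn. The question was what binds to the 3'UTR of MRTF-A, a coactivator of serum response factor encoded by Mrtfa, in extracts made before and after myogenic differentiation. Undifferentiated cells grew in DMEM with 10% FCS, and differentiated cells had spent 7 days in DMEM with 2% HS. For each state there were 3 libraries of input RNA from the extract, 3 of RNA eluted from the MRTF-A 3'UTR bait (MRTF-A miTRAP) and 3 of RNA eluted from a control bait (MS2control miTRAP). No genotype, allele or drug differs between the groups, and all 18 libraries come from the same line. In the miTRAP assay a tagged bait RNA held on a resin is given cell extract, and the small RNAs that stay bound are sequenced. The bait is therefore met by miRNAs in an extract and not inside cells. The labels do not tie the 3 libraries of a group to separate cultures, so every p-value rests on library-to-library spread that can be purely technical. The letters A, B and C stand for the column suffixes within a group, which are not tied to the numbered titles.

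A miRNA guides Argonaute proteins to mRNAs that pair with its seed, bases 2 to 8 from the 5′ end, and such mRNAs are repressed or degraded. miR-26 is broadly expressed. In muscle it is known for repressing Ezh2, the histone methyltransferase of Polycomb repressive complex 2, which keeps muscle genes silent in myoblasts, and for targeting Smad1 and Smad4 of the BMP and TGF-beta pathways. Its genes lie in genes of the Ctdsp family of small C-terminal domain phosphatases, which act on RNA polymerase II and other substrates.

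The sequences show what the members share and where they part. They are given from RefSeq (GRCm38.p6), in which all 5 names from the miR-26 hairpins were found, with the seed in capitals:
miR-26a-5p: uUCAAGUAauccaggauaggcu
miR-26b-5p: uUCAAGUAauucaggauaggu
The seed UCAAGUA is the same, and no other name among the mature mouse miRNAs of the RefSeq table, which is not complete, carries it. Counted from 1 at the 5′ end, with the base of miR-26a-5p first, the differences are C11U and C21U. miR-26a-5p has 22 bases and miR-26b-5p 21, of which 19 of 21 compared positions are identical. How the authors assigned reads with a mismatch is not given in the sources used here, so an exchange of reads between such near-identical names was not tested.

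miR-26a-5p is made from 2 genes and miR-26b-5p from 1. Mir26a-1 (GRCm38.p6, chr9:119031796-119031885, plus strand) lies in an intron of Ctdspl in both annotated transcripts. Mir26a-2 (chr10:126995530-126995613, plus strand) lies in Ctdsp2, in an intron of 1 annotated transcript and overlapping an exon of the other. Mir26b (chr1:74394310-74394394, plus strand) lies in an intron of Ctdsp1. Mature miR-26a-5p is identical from both of its genes, so their shares of its reads cannot be told apart. The opposite arms, which differ between the 3 hairpins, were nearly absent. miR-26a-1-3p had 6 reads in all 18 libraries together, miR-26a-2-3p 22 and miR-26b-3p 12, and none was abundant enough to be tested.

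The annotated 3'UTR of the bait gene holds no seed match for the family. The longest 3'UTR of Mrtfa in GENCODE vM21 has 1004 bases (GRCm38, chr15:81012281-81013284, minus strand). The sense strand was searched for TACTTGAA (8mer), TACTTGA (7mer-m8), ACTTGAA (7mer-A1) and their shared core ACTTGA (6mer). There was no match to any of them, nor in the 3'UTR of any of the 4 annotated coding transcripts searched. Of 10145 mouse 3'UTRs of at least that length, 14.8% held an 8mer or 7mer in their first 1004 bases and 27.9% held the 6mer. The exact bait sequence is not given in the sources used here, and absence of these letters says nothing of other kinds of pairing. In the 3'UTR of Ezh2 (402 bases, chr6:47530139-47530540, minus strand) there is an 8mer at base 248. It is shown, with the 8mer in capitals and on the mRNA strand, as the known kind of target site of the family, at chr6:47530283-47530304:
Ezh2 site: tgaataaagaaTACTTGAActt
Of 15192 3'UTRs of at least 402 bases, 6.16% held an 8mer or 7mer for the family in the first 402 bases.

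The table gives a normalised value per miRNA and library, reads scaled by an effective library size set by the authors. Whole reads were recovered from it, 294112 to 860828 per input library, 107165 to 544504 per MRTF-A eluate and 15562 to 39695 per MS2 control eluate. The authors' scaling factors were 0.341 to 0.634 in MRTF-A eluates, 0.701 to 1.48 in inputs and 1.24 to 2.37 in MS2 controls, so levels set between kinds of library depend on that scaling. Of the muscle markers 7 of 7 rose in input with differentiation, where 16.0% of all 313 miRNAs tested rose and 46.3% fell. That count is partly set by the abundance filter. miR-1a-3p had 0 reads in undifferentiated input, so it could be tested only through differentiated input and could not fall. miR-499-5p and miR-208b-3p had a read in only 5 and 4 of the 18 libraries. Of 4 neural markers 1 rose, 2 fell and miR-124-3p had no read; their summed level was 947 to 1552 in undifferentiated and 1867 to 2568 in differentiated input, and their part in the results on miR-26 was not tested. The 4 blood markers that the table names had at most 2 reads in a library (miR-150-5p had none), the 2 endothelial markers had at most 2 reads, and of 6 epithelial markers only miR-205-5p exceeded 3 (at most 28 reads). The MS2 controls fall into 2 kinds by their share of reads on human-named miRNAs, at least 0.755% in differentiated A and B and undifferentiated A and at most 0.115% in the other 3.

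In input RNA the family members went opposite ways with differentiation in the authors' scaling. In such bulk samples fewer cells of a type and less RNA per cell cannot be told apart. miR-26a-5p stood at 3027, 2267 and 3890 normalised reads in undifferentiated libraries A, B and C, and at 7046, 7025 and 6697 in the differentiated ones. The groups do not overlap, and the differentiated libraries were closely grouped (6923 ± 196, SD, n = 3, against 3061 ± 812). miR-26b-5p stood at 1468, 2581 and 3012 in undifferentiated input and at 1125, 1221 and 1058 in differentiated input. These groups do not overlap either, with means of 2354 ± 797 and 1135 ± 82.0 (SD, n = 3). In undifferentiated library B miR-26b-5p was the more abundant member, whereas miR-26a-5p led in the other 5 inputs.

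**Figure D1:**
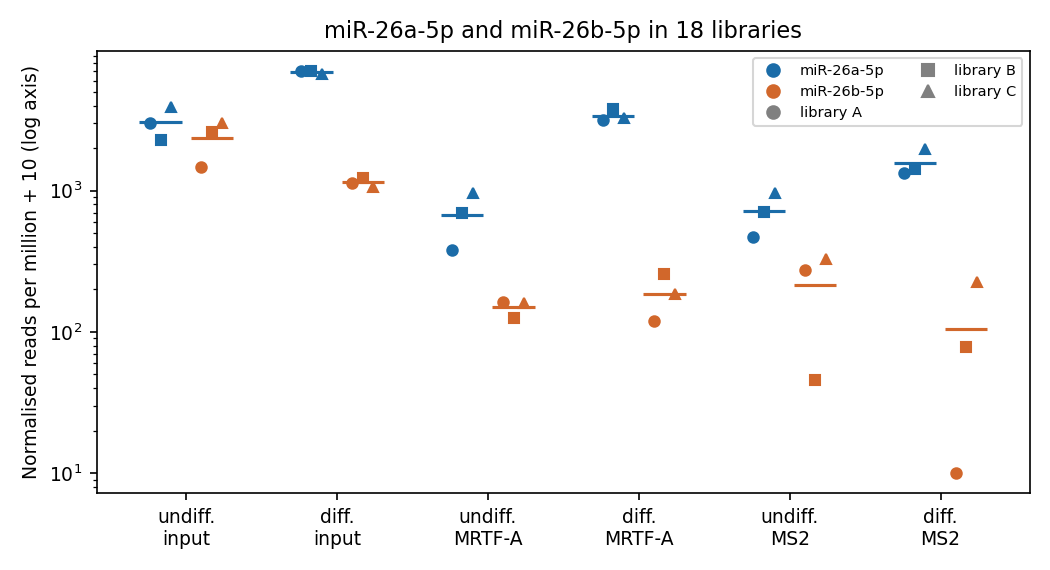
Normalised reads plus 10 (log axis) of miR-26a-5p (blue) and miR-26b-5p (orange) in the 6 groups. Each marker is a library (circle A, square B, triangle C) and each bar the mean of 3. The members are near each other in undifferentiated input (means of 3061 and 2354) and apart in differentiated input (6923 and 1135), and in both kinds of eluate they lie below the input of the same state.

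On the log2(value + 10) scale miR-26a-5p rose by 1.21 ± 0.31 (SE), a fold of 2.31 with a 95% interval of 1.45 to 3.69 (limma, adjusted p = 0.00489 over 313 miRNAs). miR-26b-5p was at -0.98 ± 0.34, 1.98-fold lower (limma, adjusted p = 0.0214). Among all 313 miRNAs tested 62.3% passed, 16.0% higher and 46.3% lower, and the median difference was -0.64. Groups without overlap were found for 66.8% of the 313, 17.9% higher and 48.9% lower. Both members passed, miR-26a-5p in the less common direction and miR-26b-5p in the more common one. Relative to the median, miR-26a-5p stood at 1.85 and only 32 of the 313 had a larger difference. miR-26b-5p stood at -0.35 relative to the median, and 181 had a larger difference. In the authors' deposited table the log2 fold change was 1.18 (FDR 0.0106) for miR-26a-5p and -1.05 (FDR 0.581) for miR-26b-5p.

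The rise of miR-26a-5p passed under every scaling and test tried, at 1.20 to 1.92, and without any 1 library, at 1.01 or more. The fall of miR-26b-5p depended on the scaling. It was -0.48 with library totals, -0.29 with RLE factors, -0.31 with TMM factors of the inputs, -0.33 with edgeR and -0.35 with DESeq2, and it passed with none of these (adjusted p = 0.113 to 0.384). These scalings also moved the median of all miRNAs, to -0.24 with library totals, -0.07 with RLE factors and -0.08 with TMM factors of the inputs, and the 50 higher and 145 lower calls became 75 and 106, 91 and 92, and 88 and 90. The fall of miR-26b-5p missed the threshold as well without differentiated A, B or C or undifferentiated C (adjusted p = 0.0645 to 0.0807). By share of all recovered reads miR-26a-5p took 0.281 ± 0.0535% of undifferentiated and 0.919 ± 0.0977% of differentiated input, and miR-26b-5p 0.213 ± 0.0501% and 0.150 ± 0.00849%. In rank by reads miR-26a-5p was 35th to 41st in undifferentiated input and 19th or 20th in differentiated input. miR-26b-5p was 40th to 57th and 52nd to 58th, so its rank ranges overlap.

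The balance within the family needs no scaling between libraries, since both members are read from the same library. miR-26a-5p made up 67.3%, 46.8% and 56.4% of the family's reads in undifferentiated input A, B and C, and 86.2%, 85.2% and 86.4% in differentiated input. The 95% Wilson intervals, which cover counting error only, were at most 69.7% in the former and at least 84.1% in the latter. The log2 ratio of miR-26a-5p to miR-26b-5p, with 0.5 read added to each, was 0.41 ± 0.62 in undifferentiated and 2.61 ± 0.08 in differentiated input (SD, n = 3). The difference of 2.20 had an exact 2-sided permutation p of 0.10, the smallest that 3 against 3 libraries allow (adjusted p = 0.175 over 7 ratio comparisons, exact permutation). Undifferentiated input was the more spread group, and leaving out any 1 library gave 1.90 to 2.52. The summed value of both members was 4495, 4848 and 6902 in undifferentiated and 8172, 8247 and 7755 in differentiated input, without overlap.

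**Figure D2:**
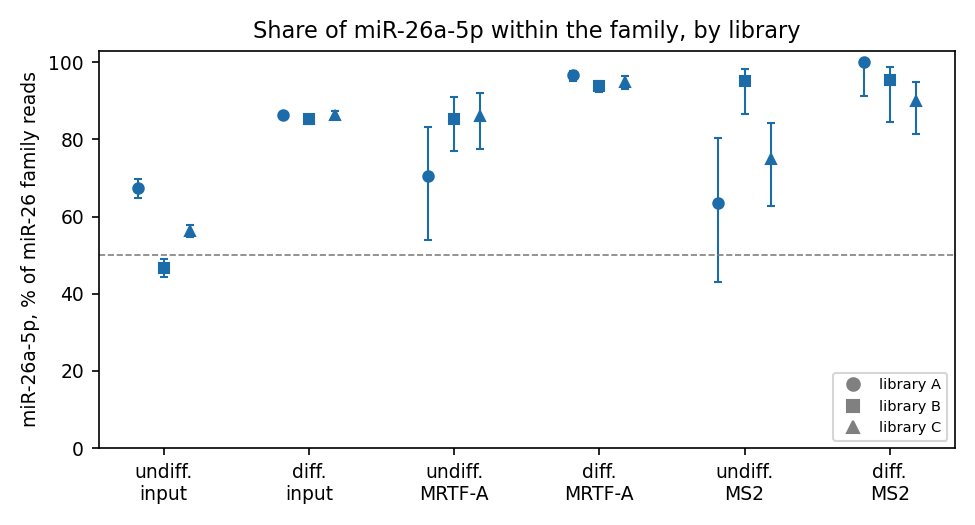
Share of miR-26a-5p in the reads of both members (percent) in each of the 18 libraries, with 95% Wilson intervals for counting error; the dashed line marks equal shares. The 3 undifferentiated inputs lie between 46.8% and 67.3% and the 3 differentiated inputs between 85.2% and 86.4%, and intervals are wide in the MS2 controls, which have 22 to 80 reads of the family each.

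In the MRTF-A eluates the share of miR-26a-5p was also higher after differentiation, at fewer reads. miR-26a-5p had 24, 82 and 75 reads in undifferentiated eluates A, B and C and 727, 1127 and 633 in differentiated ones. miR-26b-5p had 10, 14 and 12 reads and 25, 74 and 34. miR-26a-5p thus made up 70.6%, 85.4% and 86.2% of the family in undifferentiated and 96.7%, 93.8% and 94.9% in differentiated eluates, without overlap. The log2 ratio differed by 2.21 between the states (exact permutation p = 0.10, adjusted p = 0.175), and by 1.77 to 2.45 without 1 library. Whether it differed from the shift in input was not tested. In each state the ratio was higher in the MRTF-A eluate than in input, by 1.70 in undifferentiated and 1.71 in differentiated cells, again without overlap (exact permutation p = 0.10 and adjusted p = 0.175 in both).

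The balance was not distinguishable between the bait and the MS2 control at these read numbers. The ratio differed by -0.03 in undifferentiated cells (bait minus control, exact permutation p = 1, adjusted p = 1) and by -0.18 in differentiated cells (exact permutation p = 0.90, adjusted p = 1). Both signs turned when single libraries were left out (-0.71 to 0.95 without 1 library in undifferentiated and -0.88 to 0.74 in differentiated cells). The control libraries were few in reads and uneven, with miR-26a-5p at 63.6%, 95.2% and 75% of the family in undifferentiated and 100%, 95.3% and 90.0% in differentiated eluates. Between the states the control's ratio differed by 2.36, with overlapping groups (exact permutation p = 0.30, adjusted p = 0.42), and by 1.44 without differentiated A and 3.33 without undifferentiated B.

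No difference between the bait and the control passed for either member in undifferentiated cells. With the MRTF-A bait miR-26a-5p was at 368, 681 and 945 normalised reads in libraries A, B and C, and with the MS2 control at 459, 700.3 and 961. These groups overlap over nearly their whole range (665 ± 289 against 707 ± 251, SD, n = 3). The difference was -0.13 ± 0.38 (limma, adjusted p = 0.802 over 169 miRNAs), with a 95% interval from 0.520-fold to 1.62-fold. For miR-26b-5p the bait libraries stood at 153, 116 and 151 and the control libraries at 263, 35.6 and 320.2, and the bait's values all lie within the control's range. Its difference was -0.10 ± 1.01 (limma, adjusted p = 0.939), with an interval from 0.202-fold to 4.31-fold, so changes of up to about that size were not detectable with 3, 8 and 15 control reads. In this comparison 60.4% of all tested passed, 43.2% higher with the bait, and the median was 1.16, so both members lay below the median (-1.28 and -1.26 relative to it). With no filter the median of 1151 miRNAs was 0, so the distance from the median depends on the filter. With library totals miR-26a-5p was lower with the bait (-1.99, adjusted p = 0.00435), the median of all miRNAs was -0.25, and the 73 higher and 29 lower calls became 55 and 63.

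In differentiated cells miR-26a-5p was higher with the bait than with the control in the authors' scaling. Bait libraries stood at 3169, 3755 and 3256 and control libraries at 1328, 1408 and 1949.7, without overlap (3393 ± 316 against 1562 ± 338, SD, n = 3). The difference was 1.13 ± 0.38, a fold of 2.19 with a 95% interval of 1.24 to 3.86 (limma, adjusted p = 0.0147). Of all 169 tested 79.3% passed, 57.4% higher with the bait, and 58.6% were higher without overlap, around a median of 2.37. miR-26a-5p thus passed while standing at -1.24 relative to the median, and 99 of the 169 had a larger difference. This position depends on the abundance filter. With no filter the median of 1151 miRNAs was 0.14, and miR-26a-5p lay above it but did not pass (limma, adjusted p = 0.0900). The authors' deposited table gave 1.11 (FDR 0.0278) for it.

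That difference turned with the scaling. The share of miR-26a-5p in recovered reads was 0.176%, 0.207% and 0.207% in bait libraries A, B and C (0.196 ± 0.0179%). In control libraries it was 0.177%, 0.175% and 0.463% (0.272 ± 0.165%), so the higher control mean rests on library C. miR-1a-3p alone took 32.9% of reads in these bait libraries and 0.936% in the control. With library totals the difference of miR-26a-5p was -0.31 (limma, adjusted p = 0.581). The median of all miRNAs was then 1.18, and the 97 higher and 37 lower calls became 73 and 49. It was 0.33 with RLE factors, 0.22 with edgeR and 0.34 with DESeq2, and passed with none of these (adjusted p = 0.420 to 0.615), while with TMM factors of the eluates it was 1.15 and passed (adjusted p = 0.0228). Without differentiated MS2 library A it was 1.03 (adjusted p = 0.0538) and without B 1.07 (adjusted p = 0.0521). With only the controls poor in human-named reads, a split chosen after seeing the data that leaves 1 differentiated library, it was 0.79. By reads it ranked 34th to 39th in bait libraries and 21st to 29th in control libraries.

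In differentiated eluates the bait held miR-26b-5p at 109, 247 and 175, while the control held it at 0, 68.7 and 217. The groups overlap through control library C, and the control holds only 0, 2 and 8 reads of it. A count of 0 among the 22586 reads of control library A allows a share of up to 0.0133%. The difference was 1.66 ± 1.01 (limma, adjusted p = 0.153), with a 95% interval from 0.685-fold to 14.6-fold. Without control library C it was 2.67 (adjusted p = 0.0299), and with only the controls poor in human-named reads, a split chosen after seeing the data that leaves C alone in this state, it was -0.35.

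**Figure D3:**
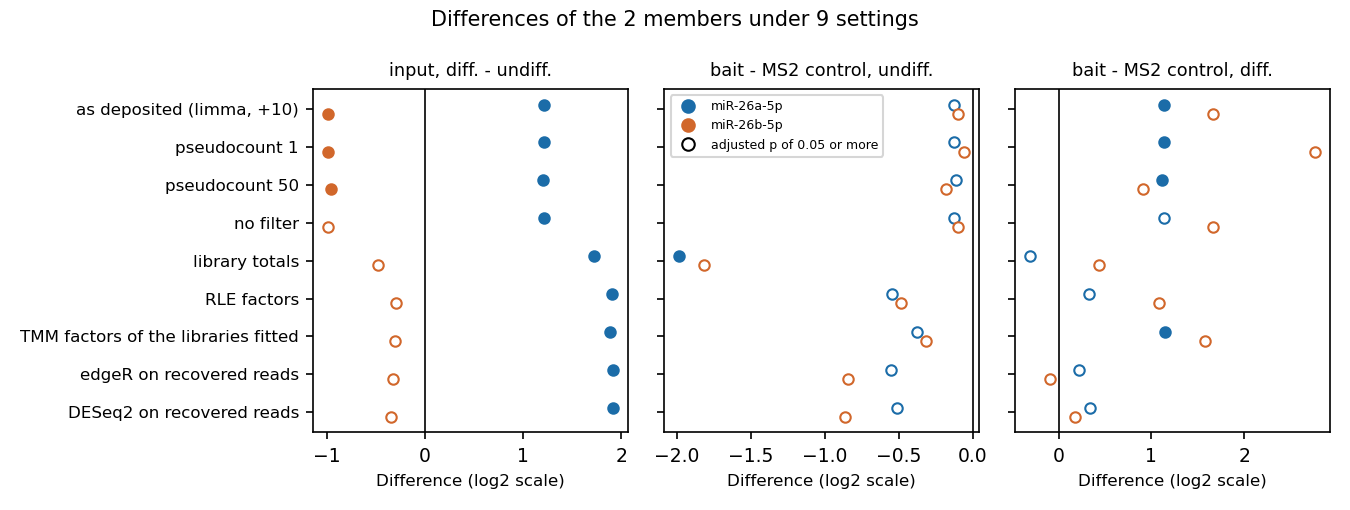
Differences of miR-26a-5p (blue) and miR-26b-5p (orange) on the log2 scale under 9 settings, for input by state and for the bait against the MS2 control in each state; filled markers have an adjusted p under 0.05. In input miR-26a-5p lies between 1.20 and 1.92 under all 9, while miR-26b-5p moves from -0.98 to -0.29, and against the control in differentiated cells miR-26a-5p moves from 1.13 to -0.31.

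Whether retention over the control differed between the states was tested directly. The change of the bait-minus-control difference was 1.26 ± 0.53 for miR-26a-5p (limma, unadjusted p = 0.0356, adjusted p = 0.133) and 1.76 ± 1.43 for miR-26b-5p (limma, adjusted p = 0.450). Neither passed, where 13.0% of all tested did. The value of miR-26b-5p was 0.52 without differentiated MS2 library A and 2.77 without C. Bait eluates themselves held more miR-26a-5p after differentiation (2.43 ± 0.38, a fold of 5.39 with a 95% interval of 3.06 to 9.50, limma, adjusted p = 0.000282, where 38.5% passed). This held under every scaling and test tried, at 1.76 to 2.65. The MS2 control moved the same way, by 1.17 ± 0.38 (limma, adjusted p = 0.0399, where 24.9% passed), but that call was lost under every scaling other than the authors' and without any 1 of 5 of the 6 libraries (undifferentiated C excepted, adjusted p = 0.0663 to 0.131). miR-26b-5p was at 0.25 ± 1.01 in the bait eluates (limma, adjusted p = 0.893) and at -1.51 ± 1.01 in the control (limma, adjusted p = 0.307), the latter moving to -0.26 without differentiated MS2 library A and to -2.51 without C.

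Against the input of the same state both members were lower in the MRTF-A eluates. In undifferentiated cells the difference was -2.25 ± 0.35 for miR-26a-5p, 4.76-fold lower (limma, adjusted p = 2.59e-05 over 305 miRNAs), and -3.92 ± 0.87 for miR-26b-5p, 15.2-fold lower (limma, adjusted p = 0.00068). Of all 305 tested 68.5% passed, 45.2% lower, and the median was -1.04. The 71 higher and 138 lower calls became 50 and 159 with library totals, 91 and 96 with RLE factors, 108 and 99 with edgeR and 112 and 99 with DESeq2, and the median became -1.68, -0.17, -0.17 and 0. In differentiated cells it was -1.03 ± 0.35 for miR-26a-5p, 2.04-fold lower (limma, adjusted p = 0.0163), and -2.68 ± 0.87 for miR-26b-5p, 6.42-fold lower (limma, adjusted p = 0.0119). Here 62.0% passed, 30.8% lower, around a median of -0.14. With library totals the 95 higher and 94 lower calls became 69 and 125. Both members kept this direction in both states under every scaling and test tried, with a smallest size of -0.89 for miR-26a-5p in undifferentiated cells with edgeR. The call of miR-26a-5p in differentiated cells was lost with no filter (adjusted p = 0.0594), and that of miR-26b-5p with a pseudocount of 1 (adjusted p = 0.105). The change of the bait-minus-input difference between the states did not pass for either member (1.22 ± 0.50, adjusted p = 0.089, and 1.24 ± 1.23, adjusted p = 0.511, limma), where 20.3% of all tested passed. The median change was 0.89, and miR-26a-5p stood at 0.33 and miR-26b-5p at 0.35 relative to it. The 51 higher and 11 lower calls became 4 and 17 with RLE factors and 4 and 15 with edgeR. Without undifferentiated MRTF-A library C the change of miR-26a-5p passed (1.52, limma, adjusted p = 0.0457), and with RLE factors it was -0.14.

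The MS2 control stood below input as well. In undifferentiated cells the difference was -2.13 ± 0.35 for miR-26a-5p (limma, adjusted p = 4.24e-05) and -3.82 ± 0.87 for miR-26b-5p (limma, adjusted p = 0.000803), where 71.1% of all tested passed and 62.6% were lower. With RLE factors (-0.20), edgeR (-0.53) or DESeq2 (-0.17) the former did not pass, and with RLE factors the latter did not either (-1.96, adjusted p = 0.0748). The 26 higher and 191 lower calls became 54 and 122 with RLE factors, 58 and 116 with edgeR and 73 and 91 with DESeq2. In the authors' scaling the median of all tested was -2.19. Relative to it miR-26a-5p stood at 0.06 and miR-26b-5p at -1.63. In differentiated cells the difference from input was -2.16 ± 0.35 for miR-26a-5p (limma, adjusted p = 4.48e-05) and -4.34 ± 0.87 for miR-26b-5p (limma, adjusted p = 0.00032), where 69.2% passed and 53.8% were lower. The median was -1.58, and the members stood at -0.58 and -2.77 relative to it. Here 47 higher and 164 lower calls became 70 and 88 with DESeq2.

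**Figure D4:**
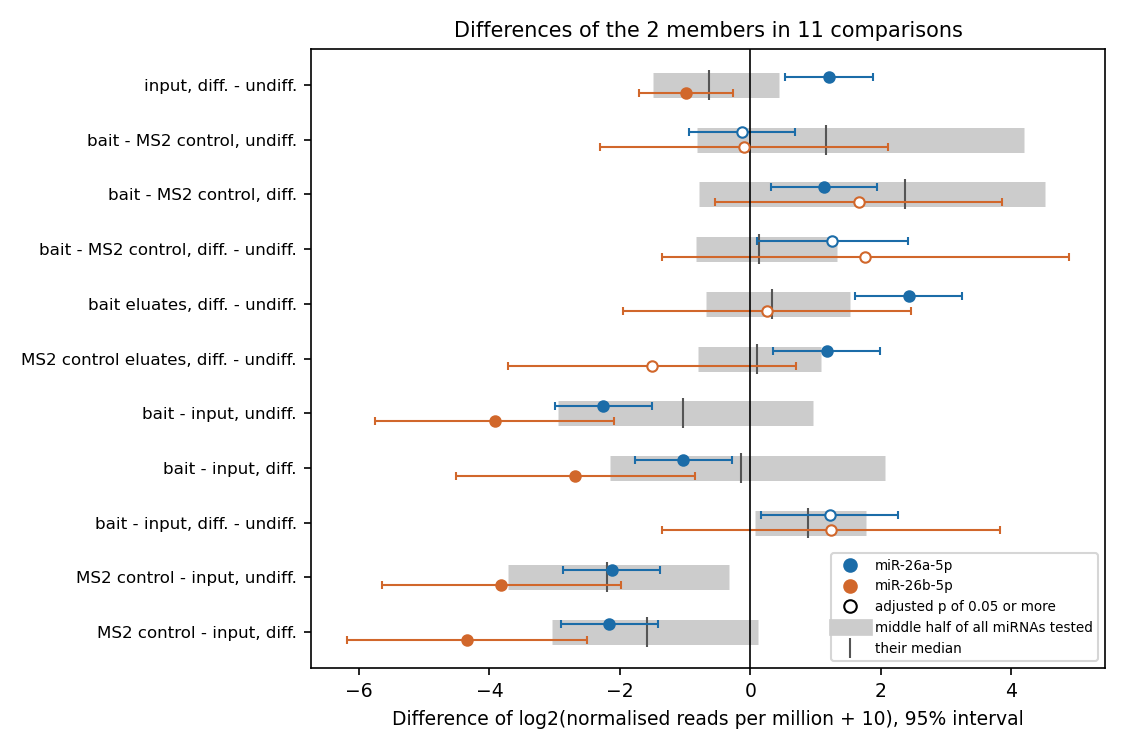
Differences of both members on the log2(value + 10) scale with 95% intervals in 11 comparisons; open markers did not pass. The grey band is the interquartile range of all miRNAs tested and the tick their median. miR-26a-5p lies above the band in input by state (1.21 against a median of -0.64). It lies below the median of the bait against the control in both states, among the miRNAs kept by the filter. The intervals of miR-26b-5p are the wider ones wherever eluates enter.

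Ordered by mean level in the authors' scaling, miR-26a-5p was highest in differentiated input (6923), followed by differentiated MRTF-A eluates (3393), undifferentiated input (3061), differentiated MS2 control (1562), undifferentiated MS2 control (707) and undifferentiated MRTF-A eluates (665). Differentiated MRTF-A eluates and undifferentiated input overlap, as do the last pair, and the other neighbours do not. Of 305 miRNAs tested, 78.7% were without overlap between differentiated MRTF-A eluates and differentiated input. Of 169, 29.6% were without overlap between the states in the control. For undifferentiated input against the differentiated control no such share was computed. miR-26b-5p was highest in undifferentiated input (2354) and next in differentiated input (1135), without overlap. Its 4 eluate groups, at means of 206, 177, 140.3 and 95.1, all overlap with their neighbours in that order. By share of all reads the order turns. miR-26a-5p was then highest in differentiated input (0.919%), followed by undifferentiated input (0.281%), the differentiated control (0.272%), differentiated MRTF-A eluates (0.196%), the undifferentiated control (0.134%) and undifferentiated MRTF-A eluates (0.0329%). For miR-26b-5p the control groups (0.0360% undifferentiated and 0.0200% differentiated) then had higher means than the MRTF-A groups (0.0102% differentiated and 0.00727% undifferentiated). Control and MRTF-A shares of miR-26b-5p overlap in both states. The differentiated control mean rests on library C (0.0514%, 8 reads), beside 0% in A and 0.00853% in B. Undifferentiated control B, with 3 reads, was at 0.00756%. Shares depend on what else fills a library. miR-1a-3p alone took 32.9 ± 1.82% of reads in differentiated MRTF-A eluates and 0.936 ± 0.325% in the differentiated control. Shares with its reads set aside were not computed.

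Neither member was among the miRNAs with the profile nearest to the other over the 18 libraries. Likeness was taken as the root mean square difference of the centred log2(value + 10) profiles among 305 miRNAs, which share library depth and scaling. The MS2 controls, with 0 to 15 reads of miR-26b-5p each, are included, so counting noise there enters every distance to miR-26b-5p. miR-27b-3p (0.60), miR-22-3p (0.71) and the scarcer miR-664-3p (0.78) were nearest to miR-26a-5p, and miR-26b-5p was only the 134th of 304 (1.74). miR-320-3p (0.94), miR-30a-3p (1.04) and miR-27a-3p (1.07) were nearest to miR-26b-5p, and miR-26a-5p was the 99th. In input miR-27b-3p was at 0.66 ± 0.31 and did not pass (limma, adjusted p = 0.08), and miR-27a-3p fell (-1.05 ± 0.34, limma, adjusted p = 0.0172). The miR-27 members, which share a seed of their own, thus also lay on opposite sides of 0 in the authors' scaling. The median of all tested was -0.64 there, and whether this holds for the miR-27 members in other scalings was not tested.

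Other miRNAs known to target Ezh2 are given for comparison. Of 5 listed, miR-124-3p, the main neuronal miRNA, had no read, and miR-138-5p had 24 reads in all and was not tested. Of the 3 tested in input 1 rose and 2 fell, around a median of -1.80 beside -0.64 for all tested, of which 16.0% rose and 46.3% fell. miR-101a-3p, a repressor of Ezh2 in several tumours, was at 39.6, 86.1 and 53.0 in undifferentiated and 178, 212 and 211 in differentiated input, and rose by 1.65 ± 0.35 (limma, adjusted p = 0.00145). Its near relative miR-101b-3p was at 283, 342 and 477 and at 97.3, 140.9 and 62.4, and fell by 1.81 (limma, adjusted p = 0.0011). miR-214-3p, which acts on Ezh2 in muscle cells, was at 249.7, 211 and 524 and at 75.3, 90.2 and 75.3, and fell by 1.80 (limma, adjusted p = 0.00136). All 3 were without overlap between the states, as were 66.8% of the 313 tested (17.9% higher and 48.9% lower). The summed input level of the list ranged from 572 to 1055 before and from 348 to 453 after differentiation, below those of miR-26a-5p alone in every input library.

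In eluates only miR-214-3p of that list was abundant enough for the test of the bait against the control. It was at 567, 1603 and 1512 with the bait in undifferentiated cells and at 65.6, 35.6 and 0 with the control, which had 5 reads in all. In differentiated cells it was at 1094, 909.5 and 957 with the bait, and the control had 1 read in all. Its difference passed in both states (limma, adjusted p = 7.63e-05 and 1.66e-05), as did 43.2% and 57.4% of all tested in that direction. With so few control reads, miR-214-3p reached the abundance needed for the test only through its bait libraries. A clearly lower value with the bait could thus not have been found, and these p-values are no independent support. In the Mrtfa 3'UTR miR-214-3p has 1 match to its 6mer and no 7mer or 8mer, and miR-138-5p has 1 7mer-m8, while miR-101a-3p and miR-101b-3p, like miR-26, have none. For these matches no share over other 3'UTRs was computed, and their part in the eluates was not tested. In the Ezh2 3'UTR searched, miR-101a-3p has 2 matches to an 8mer or 7mer, and miR-101b-3p and miR-138-5p have 1 each. No 8mer, 7mer or 6mer for miR-214-3p was found there.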

How the data were processed

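Small RNA from 18 C2C12 libraries was sequenced with 50 bp reads, per the labels. The submitters' processing notes name GRCm38/mm10 and the tools edgeR 3.18.1, featureCounts 1.4.6, Bowtie2 2.0.13 and cutadapt 1.4.2. For settings, strand, filters and reads that match several names, the sources used here give nothing. The deposited signal is a normalised value by the authors, reads scaled by an effective library size. Each was a whole multiple of 1 read (100% within 0.01 read), so whole reads were recovered. The log2 fold changes, p-values and FDR values quoted as the authors' are as deposited, per the file headers.

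The main test was limma 3.58.1 with a trend (R 4.3.3) on log2(value + 10), where 10 is the pseudocount, over all miRNAs kept by filterByExpr, with Benjamini-Hochberg adjustment and a threshold of 0.05. The 6 inputs, 12 eluates or 18 libraries were fitted together. DESeq2 1.42.0 and edgeR 4.0.16 fits of recovered reads, other scalings, pseudocounts of 1 and 50, no filter and leaving out each library were alternatives. Fits were tested on simulated data. No library was counted as a duplicate, since counts of each replicate pair differed beyond read sampling (lowest chi-square divided by its degrees of freedom 3.90). Ratios and exact permutation tests used Python 3.11.15 with scipy 1.17.1. Named miRNAs are the members, the opposite arms, Ezh2-targeting and muscle miRNAs from general knowledge, and the 3 nearest profiles per member. The members, lists and tests were chosen with earlier results of these data known.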

Additional observations from a re-analysis of the deposited data

How the results depend on the processing

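No paired analysis was possible because the columns carry suffixes that are not tied to the replicate numbers of the titles. The shallow MS2 controls, with 0 to 15 reads of miR-26b-5p, limit every comparison of that member with the control. Of 201 tested values under another setting 159 kept their direction and their side of the threshold, and of 156 with 1 library left out 137 did. The 201 include settings that could not differ. In comparisons fitted on all 18 libraries, TMM factors gave the same values and p-values as the main test. Fitting with no filter leaves each limma difference unchanged, so only its p-value could move. The ratios cannot pass a threshold with 3 against 3 libraries; 5 of 7 and 38 of 42 kept their direction. The cause of the changes was not tested.

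With 1 read added in place of 0.5, the log2 ratio of the members differed between bait and control by 0.011 in undifferentiated and 0.24 in differentiated cells. With a pseudocount of 1, miR-26b-5p between bait and input in differentiated cells was -2.75 (adjusted p = 0.105). With no filter the values were -0.98 for miR-26b-5p in input, and for miR-26a-5p 1.13 between bait and control and -1.03 between bait and input in differentiated cells and 1.17 between the states in the control, none passing. With library totals they were -0.48 for miR-26b-5p in input, and for miR-26a-5p -1.99 (passing) and -0.31 between bait and control in undifferentiated and differentiated cells and 0.97 between the states in the control. For miR-26b-5p in input, RLE gave -0.29, TMM of the inputs -0.31, edgeR -0.33 and DESeq2 -0.35. For miR-26a-5p between bait and control in differentiated cells, RLE gave 0.33, edgeR 0.22 and DESeq2 0.34. For miR-26b-5p there, edgeR gave -0.10. For miR-26b-5p between the states in bait eluates, RLE gave -0.22, edgeR -0.27 and DESeq2 -0.18. For miR-26a-5p between the states in the control, RLE and TMM of the eluates gave 1.04, edgeR 0.98 and DESeq2 0.96. The change of the bait-minus-input difference was, for miR-26a-5p, -0.14 with RLE, -0.26 with edgeR and -0.20 with DESeq2, and for miR-26b-5p -0.10 with RLE and -0.015 with DESeq2. Between control and input in undifferentiated cells miR-26a-5p was at -0.20 with RLE, -0.53 with edgeR and -0.17 with DESeq2, and miR-26b-5p at -1.96 with RLE, none passing.

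Restricting the MS2 controls by human-named reads was chosen after seeing the data; it leaves 1 library in 1 state, assumed to vary like the other groups. With under 0.5%, miR-26b-5p was at 0.28 and -0.35 between bait and control in undifferentiated and differentiated cells, at -0.63 for the change of that difference and at 0.89 between the states in the control, and miR-26a-5p at 0.79 between bait and control in differentiated cells and 1.24 between the states in the control. With at least 0.5%, miR-26a-5p was at 0.42 between bait and control in undifferentiated cells and 1.55 between the states in the control, and miR-26b-5p at 2.67 (passing) between bait and control in differentiated cells.

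Leaving out 1 library moved the ratio difference between bait and control from -0.71 to 0.95 in undifferentiated and from -0.88 to 0.74 in differentiated cells. It moved miR-26a-5p between bait and control from -0.43 to 0.24 and from 1.03 to 1.30, and miR-26b-5p from -1.01 to 0.42 and from 0.42 to 2.67. It moved miR-26b-5p in input from -1.29 to -0.78 and in bait eluates from -0.0093 to 0.54. It moved miR-26a-5p in the control from 0.90 to 1.42, and its change of the bait-minus-input difference from 0.85 to 1.52. The number of miRNAs whose bait-minus-control difference changed between the states, 22, was 11 and 38 with pseudocounts of 1 and 50, 2 with no filter, 14 with library totals, 5 with edgeR, 13 with DESeq2, 13 with the controls under 0.5% and 4 to 30 without 1 library. For bait minus input, 62 became 22 with a pseudocount of 1, 39 with no filter, 24 with library totals, 21 with RLE, 19 with edgeR and 37 to 65 without 1 library. The 189 that differed between bait and input in differentiated cells became 307 with no filter.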
